A study of Mus musculus with 12 samples.

Results

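Transcripts of neutrophil granule and cytosolic defence proteins were followed in RNA-sequencing libraries of CD11b-positive cells that had been isolated as microglia from mouse cerebral cortex. The 10 genes S100a8, S100a9, Ngp, Camp, Ltf, Mmp8, Lcn2, Retnlg, Elane and Mpo were chosen by name, as a list of neutrophil products. The choice was made with earlier results of these data known. All 10 were found among the 55487 genes of the count table. Microglia carry CD11b on their surface, and so do neutrophils, monocytes and the macrophages at the borders of the brain, so beads against CD11b do not separate these cells. The measurement therefore shows how much RNA of the neutrophil type was in each microglial isolate and how it varied between mice.

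The study compared the knock-in line App NL-G-F, in which the mouse App gene carries the Swedish, Iberian and Arctic mutations under its own promoter, with WT mice of its background strain C57BL/6J. Male mice of both strains received 24 intravenous injections over 12 weeks from the age of 9 months, and 10 mice were treated per group. The injections held PBS (veh) or 10 mg/kg of rh Bri2 BRICHOS R221E, a recombinant human chaperone domain with 1 exchanged residue. All mice then spent 4 weeks without treatment and were perfused with saline before the cortex was taken, and 3 mice of each group were sequenced. The groups are called WT veh, WT BRICHOS, App veh and App BRICHOS, and mice are named by the number in their library's name. Cortical tissue was digested with papain, cells were collected over a density gradient, and the CD11b-positive ones were held on magnetic beads. The WT control mice thus shared injections, perfusion and isolation with the App NL-G-F mice, and no group was left uninjected.

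Neutrophils fill their granules in sequence while they mature in the bone marrow. Azurophil granules with myeloperoxidase and neutrophil elastase are made first, specific granules with lactoferrin, the cathelicidin Camp, Ngp and lipocalin follow, and gelatinase granules with metalloproteases come last, while S100a8 and S100a9, which together form calprotectin, accumulate in the cytosol. The transcripts of granule proteins are therefore most abundant in cells that are still maturing, and circulating neutrophils hold the proteins but less of the earlier messages. Healthy brain tissue contains few neutrophils outside its vessels and borders.

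All 12 libraries were dominated by microglial RNA. The 9 microglia markers listed for the check, P2ry12 and Tmem119 among them, summed to between 25386 and 31011 CPM (read counts scaled to the library size after TMM adjustment). The total count per library was between 12433402 and 17889654, so 3 counts, taken as the smallest detectable level, corresponded to 0.169 to 0.226 CPM. Counts carried no readout of the knock-in bases, and the genotype was taken from the labels.

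Together the 10 transcripts made up a small and very uneven part of the libraries. Their summed level was 467, 380.5 and 36.5 CPM in WT veh mice 1, 2 and 3, and 70.6, 271 and 437 CPM in WT BRICHOS mice 1, 2 and 3. In App veh mice it was 16.0, 39.3 and 28.7 CPM, and in App BRICHOS mice it was 36.1, 33.1 and 14.0 CPM. WT veh mouse 3 and WT BRICHOS mouse 1 thus stood apart from the other WT mice, and WT veh mouse 3 lay within the range of the App NL-G-F mice, whereas none of the 6 App NL-G-F mice reached the level of any other WT mouse. As a share of all counts, the 10 genes took from 0.0509% (95% Wilson interval 0.0497% to 0.0521%) in WT veh mouse 1 down to 0.00128% (0.00111% to 0.00148%) in App BRICHOS mouse 3. These intervals cover counting error only. The ratio of the highest to the lowest mouse was 12.8 in WT veh, 6.19 in WT BRICHOS, 2.45 in App veh and 2.58 in App BRICHOS. Fewer neutrophils and less of these RNAs per cell cannot be told apart in such bulk libraries.

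**Figure D1:**
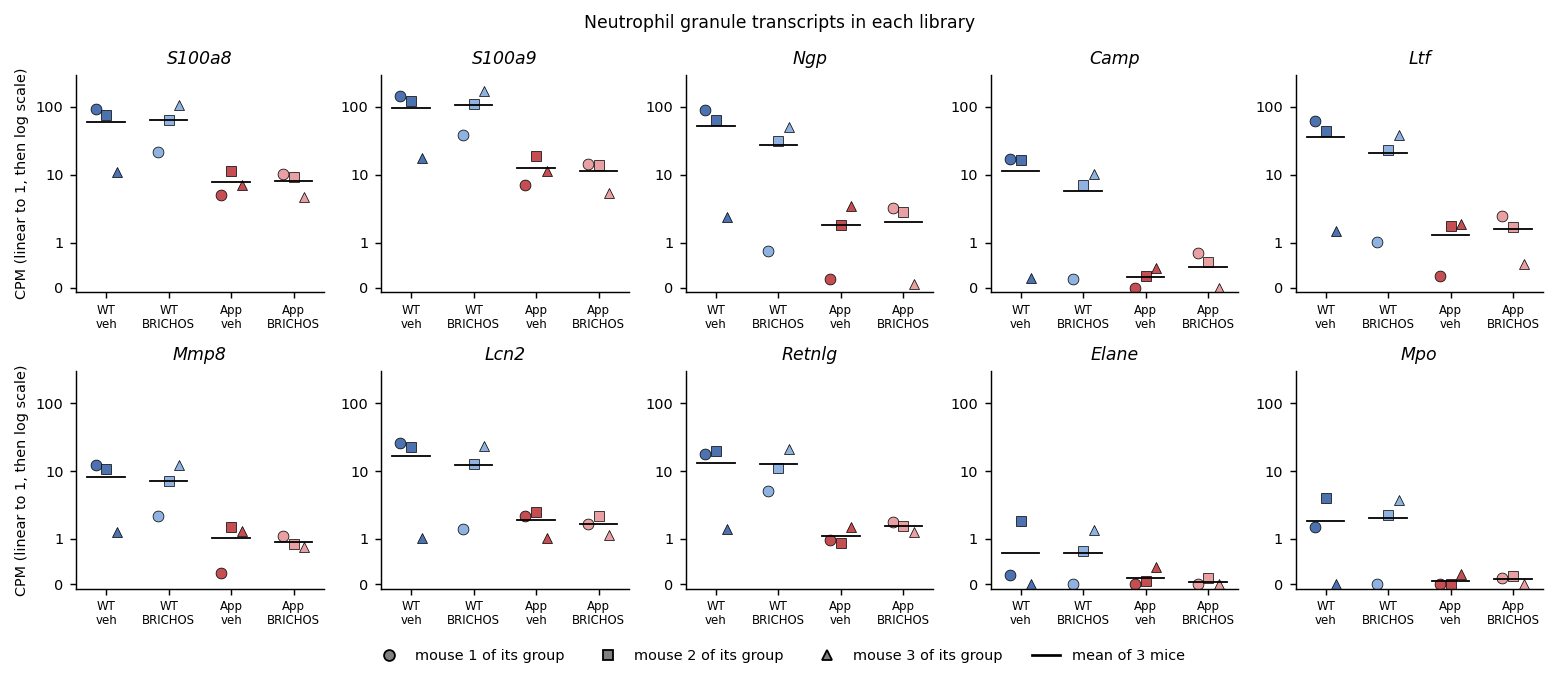
Level of each of the 10 transcripts in CPM (y axis, linear from 0 to 1 and logarithmic above) in each library, by group (x axis). Symbols stand for mice 1, 2 and 3 of a group and black lines for the mean of 3 mice. In most panels 2 WT mice of each treatment lie far above the third, which lies near the App NL-G-F mice.

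The genes lie on several chromosomes, and 2 sets of them are neighbours on GRCm38. S100a8 (ENSMUSG00000056054, chr3:90668978-90670035, plus strand) and S100a9 (ENSMUSG00000056071, chr3:90692632-90695721, minus strand) are separated by 22596 bases. Camp (ENSMUSG00000038357, chr9:109847379-109849617, minus strand), Ngp (ENSMUSG00000032484, chr9:110419747-110423012, plus strand) and Ltf (ENSMUSG00000032496, chr9:111019271-111042767, plus strand) fall within 1195389 bases of one another. Mmp8 (ENSMUSG00000005800, chr9:7558456-7568485) is far from them on the same chromosome. The others are Lcn2 (ENSMUSG00000026822, chr2:32384633-32388252), Retnlg (ENSMUSG00000022651, chr16:48872621-48874496), Elane (ENSMUSG00000020125, chr10:79886247-79888215) and Mpo (ENSMUSG00000009350, chr11:87793581-87804413). Mpo overlaps Gm11505 on the opposite strand, and the sources do not state whether counting used the strand, so its few counts are less certain.

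The promoters of these 2 neighbouring sets are shown because their genes varied together across libraries. Each sequence is the part of the RefSeq promoter window (GRCm38.p6, 250 bases before to 50 after the start) that lies before the annotated transcript, written 5′ to 3′ on the gene's strand, with matches to the C/EBP motif TNNGCAA on either strand in capitals. C/EBP factors drive granule genes in maturing neutrophils.
S100a8, chr3:90668821-90668977, plus strand: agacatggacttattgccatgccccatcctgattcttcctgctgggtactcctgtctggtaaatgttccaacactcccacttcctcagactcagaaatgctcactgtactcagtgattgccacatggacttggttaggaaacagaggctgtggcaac
S100a9, chr3:90695722-90695971, minus strand: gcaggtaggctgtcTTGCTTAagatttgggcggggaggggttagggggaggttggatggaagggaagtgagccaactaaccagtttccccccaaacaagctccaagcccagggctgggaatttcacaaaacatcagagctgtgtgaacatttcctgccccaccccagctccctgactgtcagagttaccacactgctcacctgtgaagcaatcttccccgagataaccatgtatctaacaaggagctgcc
Camp, chr9:109849618-109849706, minus strand: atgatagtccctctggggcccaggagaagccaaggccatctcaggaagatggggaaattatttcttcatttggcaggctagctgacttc
Ngp, chr9:110419558-110419746, plus strand: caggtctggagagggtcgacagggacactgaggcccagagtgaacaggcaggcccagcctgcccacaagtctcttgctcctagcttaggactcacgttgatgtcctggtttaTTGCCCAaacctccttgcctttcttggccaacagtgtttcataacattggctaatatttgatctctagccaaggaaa
Ltf, chr9:111019042-111019270, plus strand: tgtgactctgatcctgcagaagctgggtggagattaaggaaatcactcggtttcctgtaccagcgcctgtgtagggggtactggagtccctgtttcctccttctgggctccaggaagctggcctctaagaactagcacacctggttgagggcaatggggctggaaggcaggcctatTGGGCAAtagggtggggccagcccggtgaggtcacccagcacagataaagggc

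Over whole windows of 300 bases, 6 of the 10 genes held at least 1 match to TNNGCAA (S100a9, Ngp, Ltf, Mmp8, Lcn2 and Retnlg), against 37.1% of all 32851 windows. The PU.1 motif GAGGAA was searched in the same way and was found in 6 of the 10 (S100a8, Ltf, Mmp8, Lcn2, Elane and Mpo), against 28.3% of all windows. Overlap between matches of the C/EBP and PU.1 motifs was not examined, and matches of such short letters are frequent. A match is a description of the letters in the window and not a binding site.

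S100a9 and S100a8, the calcium-binding subunits of calprotectin, were the most abundant of the 10 per length. In TPM, a scale that also corrects for exonic length, S100a9 averaged 704 ± 415 and S100a8 321 ± 195 (SD, n = 6) in WT mice of both treatments. Next in WT mice came Ngp at 119 ± 107 TPM, Retnlg at 78.6 ± 50.0 TPM, Camp at 40.9 ± 35.9 TPM, Ltf at 29.9 ± 26.1 TPM, Lcn2 at 20.1 ± 15.6 TPM and Mmp8 at 11.5 ± 7.44 TPM, with Elane (2.51 ± 2.78 TPM) and Mpo (2.03 ± 1.84 TPM) last (SD, n = 6). Neighbours in this order differed by less than the larger of their SDs, S100a9 and S100a8 included, except S100a8 against Ngp and Mmp8 against Elane. In App NL-G-F mice the averages were 65.5 ± 27.7 TPM for S100a9 and 33.0 ± 11.6 TPM for S100a8 (SD, n = 6). The level of S100a9 was 146, 122 and 17.8 CPM in WT veh mice and 38.2, 111 and 171 CPM in WT BRICHOS mice, against 7.11, 18.9 and 11.5 CPM in App veh mice and 14.5, 13.9 and 5.36 CPM in App BRICHOS mice. WT veh mouse 3 lay just below App veh mouse 2, so the veh groups overlapped, whereas the BRICHOS groups did not. S100a8 was measured at 91.6, 74.8 and 10.9 CPM in WT veh, 21.6, 63.3 and 105 CPM in WT BRICHOS, 5.05, 11.5 and 7.03 CPM in App veh and 10.4, 9.14 and 4.75 CPM in App BRICHOS mice. It gave the same picture, with an overlap between the veh groups through WT veh mouse 3 and none between the BRICHOS groups.

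Both calprotectin subunits were lower in App NL-G-F than in WT mice under either treatment. Between the veh groups the log2 fold change of S100a9 was -2.93 ± 0.750 (SE), a 7.61-fold lower level (edgeR quasi-likelihood test, adjusted p = 0.00970), and that of S100a8 was -2.91 ± 0.741 (adjusted p = 0.00943). Between the BRICHOS groups the log2 fold changes were -3.23 ± 0.758 for S100a9 (adjusted p = 0.00518) and -2.96 ± 0.738 for S100a8 (adjusted p = 0.00734). S100a8, S100a9 and Retnlg kept an adjusted p under the threshold of 0.05 in both comparisons when each of the 12 libraries was left out in turn.

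The specific granule transcripts Ngp, Ltf and Camp showed a wider range between mice than calprotectin. Ngp, a cathelicidin-related granule protein, was measured at 90.9, 65.0 and 2.38 CPM in WT veh mice and at 0.818, 31.7 and 50.0 CPM in WT BRICHOS mice. In App veh mice Ngp was at 0.194, 1.84 and 3.41 CPM, and in App BRICHOS mice at 3.23, 2.81 and 0.0755 CPM, the last of these being 1 count. The highest WT mouse exceeded the lowest by 111-fold for Ngp, against 9.60-fold for S100a9 and 9.68-fold for S100a8. WT BRICHOS mouse 1 had less Ngp than 4 of the App NL-G-F mice.

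Ltf encodes lactoferrin, the iron-binding protein of specific granules. Its level was 62.4, 43.4 and 1.49 CPM in WT veh, 1.01, 23.3 and 38.7 CPM in WT BRICHOS, 0.259, 1.77 and 1.85 CPM in App veh and 2.45, 1.73 and 0.528 CPM in App BRICHOS mice. Camp, the precursor of the mouse cathelicidin peptide, had 250, 276 and 3 counts in WT veh and 3, 127 and 179 counts in WT BRICHOS mice. In App NL-G-F mice Camp had 0, 4 and 6 counts under veh and 12, 9 and 0 counts under BRICHOS. The low WT mouse of each treatment lay inside the App NL-G-F range for Ltf and for Camp, so neither gene separated the groups.

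All 3 of these transcripts fell in App veh against WT veh mice. The log2 fold change was -4.90 ± 1.44 for Ngp (adjusted p = 0.0199), -5.58 ± 1.58 for Camp (adjusted p = 0.0162) and -4.81 ± 1.35 for Ltf (adjusted p = 0.0158) in the edgeR test. Between the BRICHOS groups Ltf passed at -3.71 ± 1.30 (adjusted p = 0.0380). Ngp (-3.71 ± 1.39, adjusted p = 0.0503) and Camp (-3.63 ± 1.43, adjusted p = 0.0602) did not pass there, and WT BRICHOS mouse 1 was the low WT library in that comparison.

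Lcn2, Mmp8 and Retnlg also encode granule or secreted proteins. Lcn2 encodes lipocalin, a protein of specific granules that binds bacterial siderophores and is also made by reactive astrocytes. It stood at 26.3, 22.5 and 1.04 CPM in WT veh, 1.38, 12.8 and 23.3 CPM in WT BRICHOS, 2.20, 2.49 and 1.04 CPM in App veh and 1.68, 2.17 and 1.13 CPM in App BRICHOS mice. The low WT mice lay within the range of the App NL-G-F mice, and between the latter Lcn2 varied 2.40-fold. Mmp8, the neutrophil collagenase, was at 12.5, 10.8 and 1.27 CPM in WT veh, 2.20, 7.14 and 12.2 CPM in WT BRICHOS, 0.259, 1.51 and 1.33 CPM in App veh and 1.10, 0.895 and 0.830 CPM in App BRICHOS mice. For Retnlg, a resistin-like secreted protein of myeloid cells, the levels were 18.1, 19.8 and 1.41 CPM in WT veh, 5.10, 11.0 and 21.5 CPM in WT BRICHOS, 0.970, 0.918 and 1.48 CPM in App veh and 1.81, 1.53 and 1.28 CPM in App BRICHOS mice. Neither Mmp8 nor Retnlg overlapped between the BRICHOS groups, and both overlapped between the veh groups through WT veh mouse 3.

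These 3 transcripts fell in both comparisons of App NL-G-F with WT mice. Between the veh groups the log2 fold changes were -3.56 ± 0.828 for Retnlg (adjusted p = 0.00574), -3.00 ± 0.837 for Mmp8 (adjusted p = 0.0153) and -3.11 ± 1.03 for Lcn2 (adjusted p = 0.0341). Between the BRICHOS groups they were -3.01 ± 0.791 for Retnlg (adjusted p = 0.00969), -2.92 ± 0.844 for Mmp8 (adjusted p = 0.0158) and -2.90 ± 1.04 for Lcn2 (adjusted p = 0.0429), again from edgeR.

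The azurophil granule transcripts Elane and Mpo had at most 5 counts in any App NL-G-F mouse, none in 2 of the WT mice, and at most 31 and 69 counts in the others. Elane, neutrophil elastase, had 3, 31 and 0 counts in WT veh, 0, 13 and 24 in WT BRICHOS, 0, 1 and 5 in App veh and 0, 2 and 0 in App BRICHOS mice. Mpo, myeloperoxidase, had 22, 69 and 0 counts in WT veh, 0, 40 and 66 in WT BRICHOS, 0, 0 and 3 in App veh and 2, 3 and 0 in App BRICHOS mice. The WT mice without a count of either gene were WT veh mouse 3 and WT BRICHOS mouse 1, the same mice that were low in the other transcripts. A count of 0 allowed a level of up to about the 0.169 to 0.226 CPM given above.

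Neither azurophil transcript passed the test within a treatment. The log2 fold change of Elane was -2.32 ± 1.49 between the veh groups (adjusted p = 0.246) and -3.76 ± 1.79 between the BRICHOS groups (adjusted p = 0.114). For Mpo it was -4.65 ± 1.75 (adjusted p = 0.0568) and -4.08 ± 1.60 (adjusted p = 0.0592). Pooled over 3 mice, Mpo had 91 counts in WT veh and 3 in App veh mice, a ratio of 29.9 with a 95% interval of 9.90 to 147 for counting error alone. Elane had 37 counts in WT BRICHOS and 2 in App BRICHOS mice, a ratio of 16.1 (4.14 to 137). Both intervals leave out the spread between mice.

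Counted over the list, 8 of the 10 transcripts were called lower (adjusted p under 0.05) in App veh than in WT veh mice, where 16.9% of all 15425 tested genes were, and none was higher. Their median log2 fold change was -3.33, against -0.02 over all tested genes. None of the 10 separated the veh groups without overlap, which 25.3% of all genes did in the lower direction. Between the BRICHOS groups 6 of the 10 were called lower, against 21.8% of all genes, with a median log2 fold change of -3.43 against -0.04. There 4 of the 10 (S100a8, S100a9, Mmp8 and Retnlg) were lower without overlap, against 26.4% of all genes. Under veh the overlap came through WT veh mouse 3, and for Elane through WT veh mouse 1 as well. All 10 passed the filter on low counts, but Camp, Elane and Mpo reached 10 counts in fewer than 3 App NL-G-F libraries and so entered the test through the WT mice. Of the other 7, 7 were called lower under veh and 6 under BRICHOS, and of Camp, Elane and Mpo only Camp was, under veh.

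These counts depended on single libraries. In App veh against WT veh mice 3 of the 10 were called without App veh mouse 1, 5 without App veh mouse 2, 5 without WT veh mouse 1 and 9 without WT veh mouse 3. In App BRICHOS against WT BRICHOS mice 3 were called without App BRICHOS mouse 3, 3 without WT BRICHOS mouse 3 and 9 without WT BRICHOS mouse 1. A further contrast, added after the values had been seen, set both App NL-G-F groups against both WT groups in the same fit. In it the 7 transcripts with enough counts in App NL-G-F mice were called lower, against 27.9% of all genes, and so were Camp, Elane and Mpo, which entered through the WT mice, with log2 fold changes of -2.93 (S100a8) to -4.61 (Camp) and adjusted p-values of 0.000498 to 0.0456. None of the 10 was without overlap over all 12 mice, against 12.8% of genes, and Elane, with the highest adjusted p in this contrast, stayed under the threshold in 4 of 12 fits with a library left out.

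**Figure D2:**
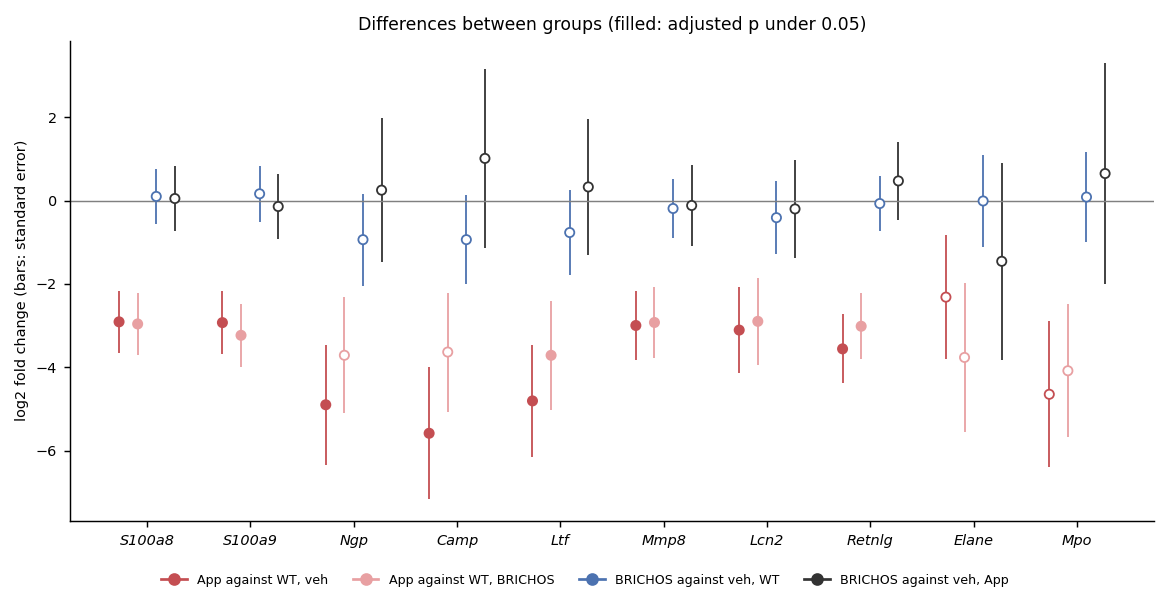
Log2 fold change of each transcript (y axis, edgeR, bars give the standard error) for App NL-G-F against WT mice under veh and BRICHOS and for BRICHOS against veh in each strain, with 3 mice per group. Filled circles mark an adjusted p under 0.05, and the 14 filled circles, 8 for veh and 6 for BRICHOS, belong to the comparisons of strains and lie below -2.8.

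Treatment with rh Bri2 BRICHOS R221E gave no detectable difference in any of the 10 transcripts. In WT mice the summed level was 295 ± 228 CPM under veh and 259 ± 183 CPM under BRICHOS (SD, n = 3), and the log2 fold changes ran from -0.94 for Camp to 0.16 for S100a9, with standard errors of 0.652 to 1.11. None was called, by edgeR or by DESeq2's Wald test (edgeR adjusted p of 0.792 to 0.998, 0 at an unadjusted p under 0.05), and edgeR called 0% of all genes. In App NL-G-F mice the summed level was 28.0 ± 11.7 CPM under veh and 27.7 ± 12.0 CPM under BRICHOS (SD, n = 3). The log2 fold changes ran from -1.46 for Elane to 1.01 for Camp with standard errors of 0.773 to 2.66, and none was called by edgeR or DESeq2 (edgeR adjusted p of 0.881 to 0.992, 0 at an unadjusted p under 0.05), against 0.00648% of all genes. The treatment effect was not found to differ between the strains for any of the 10 either (interaction, edgeR adjusted p of 0.760 to 0.987, 0 at an unadjusted p under 0.05 and 0 by DESeq2, against 0.00648% of all genes). With standard errors of this size, differences of severalfold between treatments could have gone undetected.

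The transcripts moved together across the libraries. For 9 of the 10 the 4 highest libraries were WT veh mice 1 and 2 and WT BRICHOS mice 2 and 3, a set that 1.48% of all tested genes (229) shared and that was noticed in these values. Elane was the exception, since App veh mouse 3 with 5 counts ranked above WT veh mouse 1 with 3. The Pearson correlation of a gene's log2 CPM with the mean of the 10 across 12 libraries was between 0.855 for Elane and 0.990 for Ltf, as a description, since each gene is part of that mean.

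Their proportions were less uniform than their levels. The calprotectin subunits kept nearly 1 ratio, with S100a8 taking between 36.1% (95% exact interval 33.1% to 39.3%, WT BRICHOS mouse 1) and 47.0% (38.3% to 55.8%, App BRICHOS mouse 3) of the counts of both subunits. Mmp8 varied little against S100a9, from 5.44% to 8.13% of their joint counts, in WT mice. In App NL-G-F mice its share ranged from 3.51% (0.964% to 8.74%, 4 counts of Mmp8 in App veh mouse 1) to 13.4% (6.89% to 22.7%, 11 counts in App BRICHOS mouse 3). Ngp, by contrast, made up 38.3% (36.7% to 40.0%) and 34.8% (33.1% to 36.5%) of the counts of Ngp and S100a9 in WT veh mice 1 and 2, and 22.2% (20.6% to 23.9%) and 22.7% (21.3% to 24.0%) in WT BRICHOS mice 2 and 3. In the low WT mice the share was 11.8% (8.22% to 16.3%) in WT veh mouse 3 and 2.09% (1.12% to 3.55%) in WT BRICHOS mouse 1. Relative to S100a9, both WT mice with low totals thus held less Ngp than the other WT mice.

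App NL-G-F mice differed among themselves in the same proportion. Ngp took 22.8% (17.2% to 29.2%) of the joint counts in App veh mouse 3, 18.2% (13.8% to 23.3%) in App BRICHOS mouse 1 and 16.8% (12.5% to 21.9%) in App BRICHOS mouse 2. It took 8.83% (5.95% to 12.5%) in App veh mouse 2, 2.65% (0.551% to 7.56%) in App veh mouse 1 and 1.39% (0.0352% to 7.50%) in App BRICHOS mouse 3. The App NL-G-F mice thus spanned 1.39% to 22.8%, and all WT mice together spanned 2.09% to 38.3%. WT veh mice 1 and 2 lay above every App NL-G-F mouse, and the other WT mice reached at most 22.7%. Ltf and Camp moved in the same way against S100a9, with Ltf at 29.9% and 26.3% in WT veh mice 1 and 2, 7.72% in WT veh mouse 3 and 2.56% in WT BRICHOS mouse 1.

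Azurophil transcripts took different shares against Ngp in WT veh mice 1 and 2. Mpo made up 1.63% (1.02% to 2.46%) of the counts of Mpo and Ngp in mouse 1 and 5.92% (4.63% to 7.43%) in mouse 2. Elane made up 0.225% (0.0465% to 0.657%) of the counts of Elane and Ngp in mouse 1 and 2.75% (1.87% to 3.88%) in mouse 2. WT BRICHOS mice 2 and 3 resembled WT veh mouse 2, with Mpo at 6.62% and 7.01% and Elane at 2.25% and 2.67%. The intervals of WT veh mouse 1 did not overlap those of these 3 mice.

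Lcn2 kept a share of 22.4% to 31.7% of the counts of Lcn2 and Ngp in the 5 WT mice other than WT BRICHOS mouse 1, where it was 62.9% (44.9% to 78.5%). In App veh mice it was 91.9% (78.1% to 98.3%), 57.6% (44.8% to 69.7%) and 23.3% (13.4% to 36.0%), and in App BRICHOS mice 34.2%, 43.6% and 93.8% (69.8% to 99.8%). The share was highest where Ngp was lowest, at 3 counts in App veh mouse 1 and 1 count in App BRICHOS mouse 3. The 7 astrocyte markers summed to 4472, 4002 and 1395 CPM in App veh, 1873, 649 and 1236 CPM in App BRICHOS and 423 to 768 CPM in WT mice. Their part in the Lcn2 counts was not tested.

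**Figure D3:**
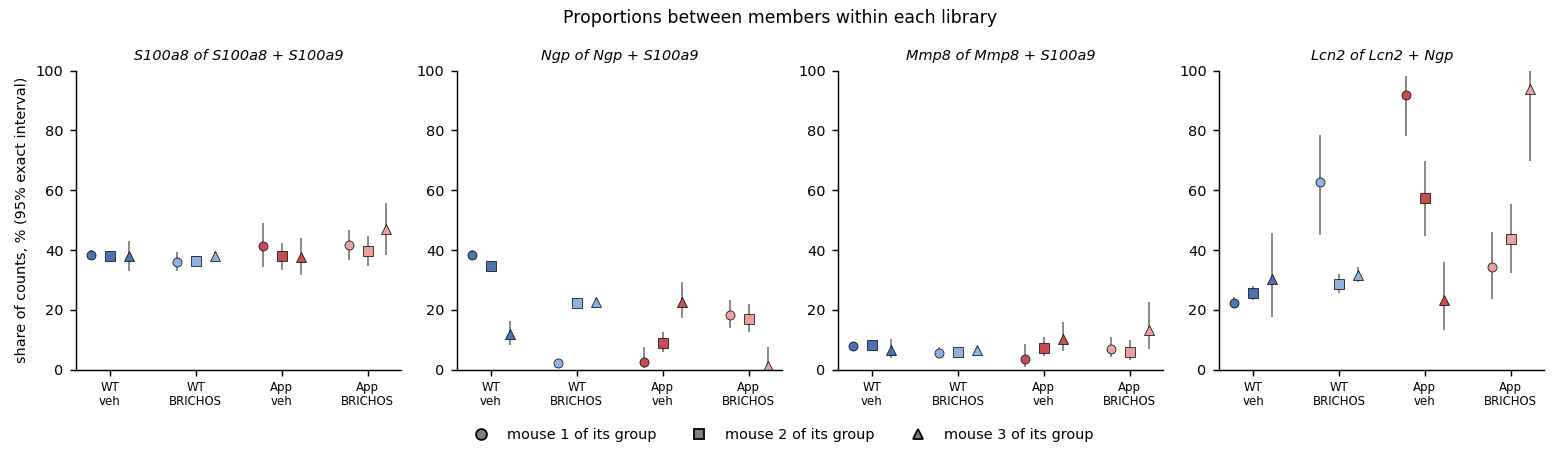
Share of counts (y axis, %, bars give 95% exact intervals for counting error) of S100a8, Ngp and Mmp8 against S100a9 and of Lcn2 against Ngp in each library, by group (x axis). Symbols stand for mice 1, 2 and 3. The S100a8 share stays between 36.1% and 47.0%, whereas the Ngp share ranges from 1.39% to 38.3%.

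Other genes of the neutrophil lineage were examined from lists. Of 5 tested granule or secreted genes beyond the 10 (Mmp9, Cd177, Pglyrp1, Chil3 and Hp), all 5 were called lower in App NL-G-F mice under both treatments, against the 16.9% and 21.8% of all genes given above. Mmp9, the gelatinase of late granules, had a log2 fold change of -1.80 ± 0.369 under veh (edgeR adjusted p = 0.00271) and -2.24 ± 0.369 under BRICHOS (adjusted p = 0.000539). It took 37.9% of the joint counts of Mmp9 and S100a9 in WT veh mouse 3 and 14.4% in WT veh mouse 1. Prtn3, a serine protease of azurophil granules, did not pass (-3.57 ± 1.69, adjusted p = 0.120 under veh), and Ctsg was too low to be tested, with a top level of 1.01 CPM in WT veh mouse 2 and none in any App NL-G-F mouse.

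Of 17 tested receptors, enzymes and surface proteins of neutrophils (25 listed), 9 were called lower and 1 higher under veh, and 15 lower and 1 higher under BRICHOS. However, 10 of the 17 (Ly6g, Fpr1, Fpr2, Itgb2l, Padi4, Trem3, Asprv1, Ltb4r1, Stfa2l1 and Wfdc21) reached 10 counts in fewer than 3 App NL-G-F libraries and so entered the test through the WT mice. They held 6 of the 9 lower calls under veh and 9 of the 15 under BRICHOS. Of the other 7, 3 were called lower under veh and 6 under BRICHOS, and 1 higher under each. The background for lower calls was 16.9% under veh and 21.8% under BRICHOS, and that for higher calls 20.1% and 20.8%. Cxcr2, the chemokine receptor that brings mature neutrophils into tissue, was at 5.27, 4.68 and 4.09 CPM in WT veh, 4.66, 11.4 and 15.5 CPM in WT BRICHOS, 1.29, 2.36 and 1.70 CPM in App veh and 2.26, 1.60 and 1.28 CPM in App BRICHOS mice. Cxcr2 thus did not overlap between the strains under either treatment, and under veh none of the 10 granule transcripts did the same. Its log2 fold change was -1.39 ± 0.410 under veh (edgeR adjusted p = 0.0201) and -2.61 ± 0.404 under BRICHOS (adjusted p = 0.000339). Fpr1, the formyl peptide receptor, is no granule transcript of the list and entered the test through the WT mice. It had 24, 36 and 18 counts in WT veh, 31, 45 and 51 in WT BRICHOS, 7, 7 and 6 in App veh and 9, 2 and 5 in App BRICHOS mice, which did not overlap between the strains in counts. Ly6g, the surface antigen of mouse neutrophils, was between 0.0744 and 1.57 CPM in WT mice and between 0 and 0.262 CPM in App NL-G-F mice.

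Csf3r, the receptor for the granulocyte growth factor, was the gene called higher. It lay between 597 and 839 CPM in every library and rose by 0.21 ± 0.0617 (SE) under veh (edgeR adjusted p = 0.0200) and 0.33 ± 0.0617 under BRICHOS (adjusted p = 0.00123) on the log2 scale. All 10 neutrophil markers listed for the check, Csf3r included, summed to 677 to 733 CPM in WT veh and 630 to 715 CPM in WT BRICHOS mice. They summed to 753 to 799 CPM in App veh and 740 to 856 CPM in App BRICHOS mice, more than in any WT mouse. Csf3r made up most of this sum. Without Csf3r, the other 9 markers summed to 57.9, 53.0 and 22.4 CPM in WT veh, 32.5, 70.5 and 87.3 CPM in WT BRICHOS, 10.6, 15.9 and 15.3 CPM in App veh and 15.4, 16.4 and 10.7 CPM in App BRICHOS mice. The sum without Csf3r was higher in each WT mouse than in each App NL-G-F mouse, unlike the summed level of the 10 granule transcripts. Mmp9 and Cd177 among these 9 were also counted with the granule genes above. Of the 5 markers among these 9 with enough counts in App NL-G-F mice, 3 were called lower under veh and 5 under BRICHOS. Of the other 4 (Ly6g, Stfa2l1, Padi4 and Wfdc21), which entered the test through the WT mice, 3 were called lower under each. Of all genes, 16.9% were called lower under veh and 21.8% under BRICHOS.

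The genes whose pattern was most like the mean of the 10 across 12 libraries were mostly known from neutrophils. Chil3, a chitinase-like protein of myeloid cells, had a Pearson correlation of 0.970, Cd177, a neutrophil surface protein, 0.958, Itgb2l 0.956, Prtn3 0.945, Prss34 0.945, Ly6g 0.938, Wfdc21 0.934, Slc32a1 0.926, Ifitm6 0.920 and 9830107B12Rik 0.918. Prss34 is a protease known from basophils and mast cells, and Slc32a1 is the vesicular transporter of inhibitory neurons. Slc32a1 was low, at no more than 1.20 CPM in a WT mouse. All these values share the same 12 libraries and depths. Itgb2l, Prtn3, Prss34, Ly6g, Wfdc21, Slc32a1 and 9830107B12Rik reached at most 0.262 CPM in App NL-G-F mice and so passed the filter through the WT mice. For them a higher level in WT mice was thus partly set by the filter. Over the 6 WT mice alone, the correlations of the named genes ran from 0.884 (9830107B12Rik) to 0.993 (Wfdc21).

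Genes through which the secreted proteins act and genes that recruit neutrophils were mostly detected at other levels. Of 6 tested receptors for the secreted members, 1 was called higher and 2 lower under veh and 1 higher and 4 lower under BRICHOS, against a background of 20.1% higher and 16.9% lower under veh and 20.8% higher and 21.8% lower under BRICHOS. Fpr2, called lower under both, entered through the WT mice. Tlr4, a receptor for calprotectin, was at 72.5 to 93.1 CPM in WT and 44.9 to 65.0 CPM in App NL-G-F mice, and fell by 0.65 and by 0.49 on the log2 scale (edgeR adjusted p = 0.00122 and 0.00598). Cd69, an early activation antigen of leukocytes, rose by 2.53 ± 0.389 and 2.53 ± 0.376 (SE, adjusted p = 0.000378 and 0.000255).

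Of 7 tested recruitment genes (13 listed), 4 were called higher and 1 lower under veh and 5 higher and 1 lower under BRICHOS. The background was 20.1% higher and 16.9% lower under veh and 20.8% higher and 21.8% lower under BRICHOS. The neutrophil-attracting chemokine Cxcl2 was at 45.7 to 80.4 CPM in WT mice and at 184 to 397 CPM in App NL-G-F mice, with no overlap, and its log2 fold change was 2.40 ± 0.243 under veh (edgeR adjusted p = 1.52e-05) and 2.15 ± 0.239 under BRICHOS (adjusted p = 2.83e-05). Cxcl5, another ligand of Cxcr2, rose by 4.40 ± 0.535 (adjusted p = 6.38e-05) and 3.83 ± 0.635 (adjusted p = 0.000560) from levels of at most 0.415 CPM in WT mice, and it entered the test through the App NL-G-F mice. Cxcl1 rose as well, by 2.18 ± 0.403 and 1.42 ± 0.380 (adjusted p = 0.00139 and 0.0106). Cxcr4, the receptor that retains neutrophils in the marrow and that other leukocytes also carry, rose by 2.97 ± 0.199 and 2.27 ± 0.190 (adjusted p = 5.24e-07 and 2.91e-06), whereas its ligand Cxcl12 fell by 0.63 and by 1.37 (adjusted p = 0.00912 and 5.21e-05). Ligands that attract neutrophils were thus higher in the isolates of App NL-G-F mice, in which the granule transcripts were lower.

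Markers of other blood and border cells were set beside the granule transcripts. The 7 erythroid markers, haemoglobin genes for the most part, summed to 187, 153 and 79.6 CPM in WT veh and 62.0, 166 and 277 CPM in WT BRICHOS mice. They summed to 77.5, 109.8 and 44.0 CPM in App veh and 44.4, 89.4 and 38.9 CPM in App BRICHOS mice. The 4 WT mice with high granule transcripts were thus also the 4 mice with the highest erythroid sums. Called lower were 0 of 5 tested erythroid markers under veh and 4 of 5 under BRICHOS, against 16.9% and 21.8% of all genes. Hbb-bs, a beta globin gene, had a log2 fold change of -0.90 ± 0.531 under veh (edgeR adjusted p = 0.208) and -1.53 ± 0.539 under BRICHOS (adjusted p = 0.0395). The part of blood in the granule transcripts was not tested.

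Monocyte markers (8 genes) summed to 130.4 to 161 CPM in WT veh, 169.9 to 236 CPM in WT BRICHOS, 61.0 to 77.9 CPM in App veh and 65.7 to 71.6 CPM in App BRICHOS mice. In this sum WT veh mouse 3 stood at 130.4 CPM beside 161 and 144 CPM, and WT BRICHOS mouse 1 at 169.9 CPM beside 228 and 236 CPM. These gaps were smaller than for the granule sum. The list holds Chil3, counted above with the granule genes, at 22.9, 18.9 and 0.819 CPM in WT veh mice 1, 2 and 3. Without Chil3, WT veh mouse 3 was not the lowest of its group, whereas WT BRICHOS mouse 1 still was. The 5 choroid plexus markers summed to 902, 860.5 and 3932 CPM in WT veh mice and 3256, 4008 and 6768 CPM in WT BRICHOS mice, so that WT veh mouse 3, low in granule transcripts, was the highest of its group. In App NL-G-F mice they summed to 640.0 to 1969 CPM. T and NK cell markers summed to at most 1.71 CPM and markers of marrow B cell precursors to at most 0.755 CPM in any library.

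**Figure D4:**
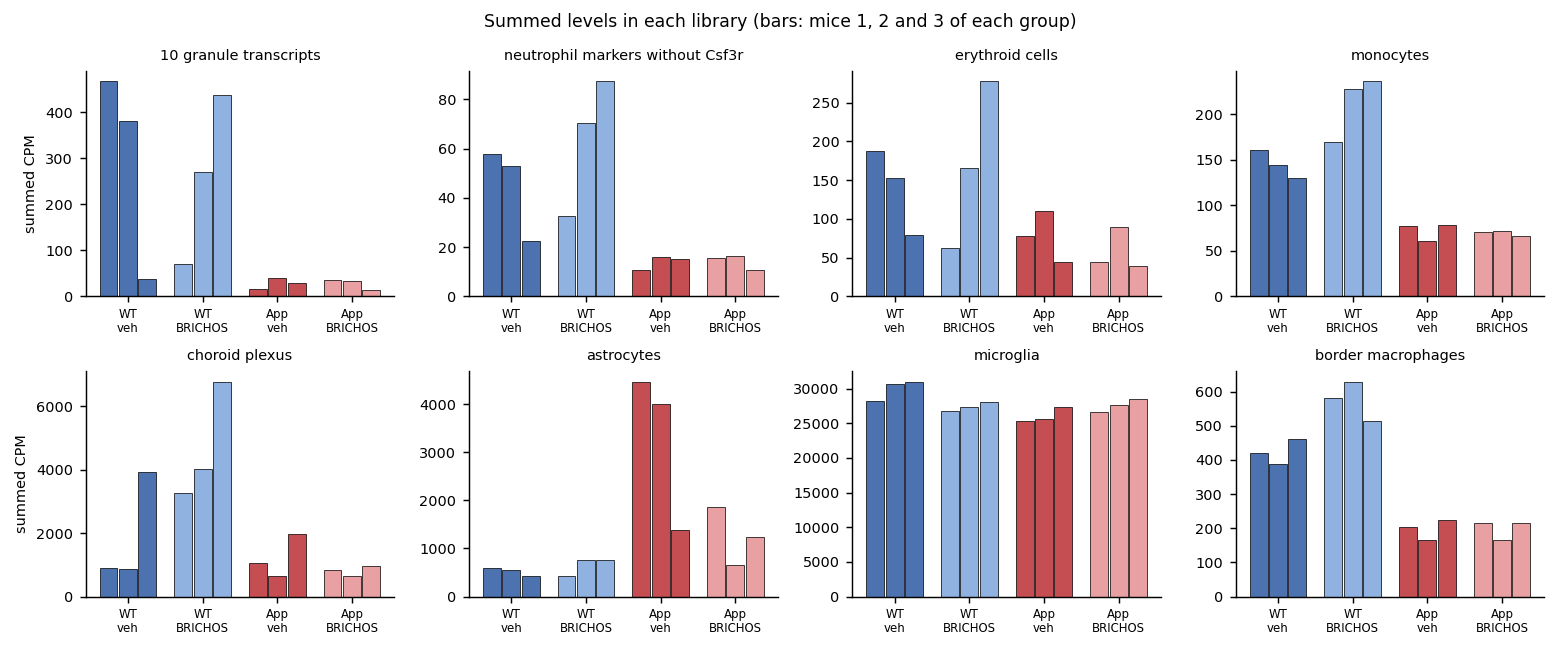
Summed CPM (y axes, each from 0 with its own scale) of the 10 granule transcripts and of marker lists for 7 cell types in each library, with 3 bars per group for mice 1, 2 and 3. The neutrophil list is shown without Csf3r. The granule sum reaches 467 CPM in WT veh mouse 1 and at most 39.3 CPM in App NL-G-F mice, and the erythroid sum is highest in the same 4 WT mice.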

How the data were processed

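RNA of CD11b-positive cortical cells from 12 mice was sequenced from stranded mRNA libraries. The authors trimmed reads with Cutadapt, aligned them to GRCm38 with STAR (2.6.1d in the submitters' processing notes) and counted them with featureCounts 1.5.1, and the deposited values are raw counts per gene. The strand setting and the handling of multimapped reads are not given in the sources used here. Of 55487 genes, 55141 could be given a symbol through GENCODE's GRCm38 annotation, and 26314 had no count.

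Genes kept by filterByExpr with a minimum count of 10 (15425) were tested in R 4.3.3 with edgeR 4.0.16, by the quasi-likelihood test on 1 fit to all 12 libraries (4 group means, TMM factors). P-values were adjusted by Benjamini and Hochberg over all tested genes, and the threshold was 0.05. A standard error is the log2 fold change divided by the root of its F statistic. DESeq2 1.42.0, the tool of the authors, was an alternative. CPM used TMM factors, log2 CPM a prior count of 2, and TPM the union of exons. Each library is 1 mouse, and pairs within a group differed beyond counting error (chi-square per degree of freedom of 5.54 to 33.2). The fit was tested on simulated data.

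The members and lists were chosen with earlier results of these data known. The 10 members are all named. Of other lists, at most the 4 called genes with the lowest p per comparison are named, besides a fixed set of markers. The contrast averaged over treatments was added after seeing the data.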

Additional observations from a re-analysis of the deposited data

How the results depend on the processing

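Leaving out each of the 12 libraries in turn gave 3 to 9 of the 10 called in App veh against WT veh mice, 3 to 9 in App BRICHOS against WT BRICHOS mice and 9 to 10 in the contrast averaged over treatments. Where a group was left with 2 libraries, the spread came from all groups. Requiring 10 counts in every library gave 4 in App veh against WT veh mice and 4 in the averaged contrast, because only 4 of the transcripts were then tested. DESeq2's Wald test gave 8, 7 and 10, no filter 9, 9 and 10, a robust spread 7, 4 and 9, and the compared groups alone 7 and 6. DESeq2's size factors and a log2 fold change over 1 gave the same numbers as reported. None was called for treatment or interaction in any of these settings.

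Same-numbered libraries did not pair: the correlation of their deviations from the group means ran from -0.01 to 0.23, and no comparison had all pairs above 0.1. The fit with the replicate block gave 7, 4 and 10.

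Without S100a8 and S100a9 the summed level was 140.2 CPM in WT veh, 89.3 CPM in WT BRICHOS, 7.62 CPM in App veh and 8.35 CPM in App BRICHOS mice. The sign of the uncalled treatment differences was not stable. In WT mice BRICHOS against veh gave 0.0339 for Elane with DESeq2's Wald test, and 0.0125 for Elane and -0.0839 for Mpo with the replicate block. With 1 library left out, 21 of 60 single log2 fold changes changed sign. In App veh against WT veh mice this was Elane (-4.16 to 0.35). In App BRICHOS against App veh mice these were S100a8 (-0.18 to 0.44), S100a9 (-0.41 to 0.29), Ngp (-0.29 to 1.05), Ltf (-0.16 to 0.71), Mmp8 (-0.57 to 0.28), Lcn2 (-0.48 to 0.0327) and Elane (-4.16 to 0.38). In WT BRICHOS against WT veh mice these were S100a8 (-0.48 to 0.55), S100a9 (-0.35 to 0.60), Mmp8 (-0.81 to 0.23), Lcn2 (-1.22 to 0.11), Retnlg (-0.71 to 0.35), Elane (-0.91 to 2.65) and Mpo (-0.73 to 1.38). In the interaction these were S100a8 (-0.50 to 0.53), S100a9 (-0.74 to 0.21), Mmp8 (-0.38 to 0.69), Lcn2 (-0.31 to 1.02), Elane (-4.15 to 0.40) and Mpo (-0.74 to 3.82). The cause of these changes was not tested. Elane and Mpo had at most 5 counts in any App NL-G-F mouse.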

Other observations

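Markers of border macrophages and platelets were lower in App NL-G-F mice, and WT veh mouse 3 was not low in them. The 6 border macrophage markers summed to 389 to 459.7 CPM in WT veh, 515 to 629 CPM in WT BRICHOS, 167 to 224 CPM in App veh and 165 to 217 CPM in App BRICHOS mice, and all 6 were called lower in App NL-G-F mice under both treatments. Of all genes, 16.9% were called lower under veh and 21.8% under BRICHOS. The 5 platelet and megakaryocyte markers summed to 20.9 to 26.7 CPM in WT mice and 5.70 to 9.89 CPM in App NL-G-F mice, and 2 of 3 tested were called lower under each treatment. Within the WT veh group, mouse 3 had 23.7 CPM of platelet markers and 459.7 CPM of border macrophage markers, beside 20.9 and 23.8 CPM and 419.6 and 389 CPM in mice 1 and 2, although its granule transcripts were 12.8-fold lower than in mouse 1. Markers of dividing cells moved the other way, with 4 of 5 called higher in App NL-G-F mice under veh and 5 of 5 under BRICHOS, and with summed levels of 20.3 to 36.9 CPM in WT and 58.9 to 69.5 CPM in App NL-G-F mice. The share of all genes called higher was 20.1% under veh and 20.8% under BRICHOS.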
